A study of Mus musculus with 10 samples.

Results

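The tripartite motif (TRIM) family of ubiquitin ligases was examined in RNA of colon intestinal epithelial cells (IECs) from wild type (WT) mice and from mice without the small GTPase RhoB (RhoB-/-). The family was taken as every gene of the deposited table whose symbol is Trim, a number and at most 1 letter, which gave 68 of 55487 genes. Of these 68 members, 43 had a mean TPM of at least 1 over the 10 libraries and were tested, 21 were detected at a lower mean and 4 (Trim54, Trim55, Trim60 and Trim75) were listed at 0 in every library. TPM, the relative abundance of a gene's transcripts within a library, is corrected for transcript length, so levels of different genes can be set side by side.

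The libraries came from 5 WT and 5 RhoB-/- mice on the C57BL/6J strain, 6 to 8 weeks of age by the general statement of the study's methods, and no colitis treatment is given for them. RhoB-/- is a whole-body knockout that was made at a model organism centre, whereas WT males were purchased from another supplier, so genotype and colony of origin cannot be told apart. The sex of the RhoB-/- mice is not given in the sources used here. IECs were released from the colon by chelation and were not sorted. All 10 epithelial markers examined (such as Epcam, Krt8 and Muc2) were detected in both genotypes. Rhob had a TPM of 171 to 389 in WT libraries and 0.09 to 0.57 in RhoB-/- replicates 1 to 4, whereas the library labelled RhoB-/- replicate 5 had 111, which goes against its label. That library was kept as labelled, and counts without it are given below. The labels do not say in words that each library is from a different mouse, so the p-values measure the spread between these libraries.

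TRIM proteins carry a RING finger, 1 or more B-boxes and a coiled coil, followed by a C-terminal part that differs between classes and binds the substrate. The RING finger recruits an E2 enzyme and passes ubiquitin, or ubiquitin-like proteins such as ISG15, to a target. Many members with a PRY-SPRY C-terminus are induced by interferon and act in antiviral sensing, whereas members with a PHD finger and bromodomain act on chromatin and others serve in the cytoskeleton or in protein turnover.

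Sequence at the start sites is shown first, since 9 members, 8 of them among those that were higher, share a motif there. The interferon-stimulated response element (ISRE) is a sequence found in the promoters of many interferon-induced genes, and its core, GAAANNGAAA or TTTCNNTTTC on the other strand, was searched in RefSeq windows on GRCm38.p6 that run from 250 bases before to 50 bases after a start site. Windows were found for 53 of the 68 members, and 9 of those 53 (17%) held a match, against 3.99% of the 27025 genes with a window. The 30 bases around the match are given on the strand of the gene, with the core in capitals:
Trim30a: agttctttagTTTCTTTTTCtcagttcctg
Trim30d: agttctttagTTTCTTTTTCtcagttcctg
Trim12a: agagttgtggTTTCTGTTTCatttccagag
Trim5: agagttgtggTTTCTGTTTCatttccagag
Trim12c: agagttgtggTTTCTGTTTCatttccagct
Trim34a: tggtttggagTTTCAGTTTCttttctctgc
Trim21: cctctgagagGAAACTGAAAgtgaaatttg
Trim26: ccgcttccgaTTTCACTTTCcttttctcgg
Trim2: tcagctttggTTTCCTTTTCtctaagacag

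The stretches of Trim30a (chr7:104465210-104465239) and Trim30d (chr7:104507871-104507900) were identical over all 30 bases, as were those of Trim12a (chr7:104315466-104315495) and Trim5 (chr7:104288136-104288165). The stretch of Trim12c (chr7:104353359-104353388) shared 28 of its 30 bases with these last 2. The others lie at chr7:104244457-104244486 (Trim34a), chr7:102565450-102565479 (Trim21), chr17:36836976-36837005 (Trim26) and chr3:84212791-84212820 (Trim2, which was not called). Trim34a and Trim26 are on the plus strand, and the others are on the minus strand. Trim21 and Trim26 each held another match that overlaps the one shown, and Trim30a held another at a start site further along the gene (chr7:104446104-104446133). In Trim12a, Trim34a, Trim21 and Trim2 the match lay just after the annotated start, and in the others shown it lay before it.

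The whole 250 bases before the start site are given for the most strongly raised member, Trim30a, and its neighbour Trim30d, with the ISRE core in capitals, to show how alike they are:
Trim30a: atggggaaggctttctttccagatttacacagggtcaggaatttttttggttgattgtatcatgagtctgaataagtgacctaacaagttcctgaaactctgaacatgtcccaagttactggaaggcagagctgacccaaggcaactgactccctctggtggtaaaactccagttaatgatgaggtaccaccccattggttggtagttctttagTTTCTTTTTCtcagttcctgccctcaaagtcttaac
Trim30d: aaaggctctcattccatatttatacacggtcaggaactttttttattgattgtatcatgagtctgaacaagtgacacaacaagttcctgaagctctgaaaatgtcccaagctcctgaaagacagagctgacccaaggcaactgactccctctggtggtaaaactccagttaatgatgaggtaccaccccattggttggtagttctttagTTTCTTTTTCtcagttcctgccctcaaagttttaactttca
These lie at chr7:104465194-104465443 and chr7:104507850-104508099, both on the minus strand. Over the 300 bases of their windows the genes were 92% identical in a global alignment.

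By the calls described below, 8 of the 15 members that were higher in RhoB-/- libraries and had a window held the ISRE core, against 3.73% of all tested genes with a window. These 8 include Trim30a and Trim30d, whose windows were 92% identical. They also include Trim5, Trim12a and Trim12c, whose windows were 80.3% to 87.7% identical. This count and that over all members thus hold near copies and not only separate sequences. None of the 6 members lower in RhoB-/- libraries that had a window held the ISRE core, and of the 11 uncalled members with a window it was found in Trim2. With a share of 3.73% over all tested genes, 6 members are too few to show a lack of the motif. The other interferon motif searched, TTCNNNGAA (the gamma-activated sequence, GAS), was found in Trim15 and Trim31 among the higher members and in Trim46 among the lower ones, and in 8.27% of all tested genes with a window. These matches describe letters in a window and not binding.

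The comparison of genotypes asked which TRIM genes differ in IECs that lack RhoB. Of the 43 tested members, 16 were higher in RhoB-/- libraries (37.2% of those tested), 7 were lower (16.3%) and 20 passed the test in neither direction. Among all 12870 tested genes 7.73% were higher and 13.5% were lower. Counts of all tested genes moved with the scaling, from 995 higher and 1734 lower to 2010 and 1645 when libraries were centred on their median deviation and 1101 and 3729 without mitochondrial genes. The members went to 17 and 6, and to 16 and 12. Without mitochondrial genes the share of members that fell, 12 of 43, was near that of all genes tested in that fit, 3729 of 13287. In the main comparison the share of members that rose was above that of all tested genes, while the share that fell was near it. A gene was called at an adjusted p below 0.05 from limma with Benjamini-Hochberg adjustment over all tested genes, and every difference below is RhoB-/- minus WT on the log2(TPM + 1) scale with its standard error, which understates the change of low genes. The median difference of all tested genes was -0.13, and that of the tested members was -0.03. Relative to the median of all tested genes, the called members lay 0.57 to 3.04 higher or, for those called lower, between -1.05 and -0.38.

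At the study's thresholds (unadjusted p below 0.05 and fold change above 1.5), 14 members (32.6%) were higher, against 6.37% of all tested genes. In the main fit 4 (9.3%) were lower, near the 8.33% of all tested genes. With a pseudocount of 0.1 in place of 1, or without mitochondrial genes, 7 were lower at these thresholds. The share of all tested genes at these thresholds was not counted in those settings, so these counts of 7 have no share to be set against. Every RhoB-/- library lay above every WT library for 15 members (34.9%) and below every WT library for 4 (9.3%). The same was true of 5.97% and 8.55% of all tested genes, so the share below was near that of all tested genes. The summed TPM of all members ran from 509 to 647 in WT and from 741 to 1139 in RhoB-/- libraries, a ratio of the means of 1.52. In bulk RNA, fewer cells of a type and less RNA per cell cannot be told apart.

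**Figure D1:**
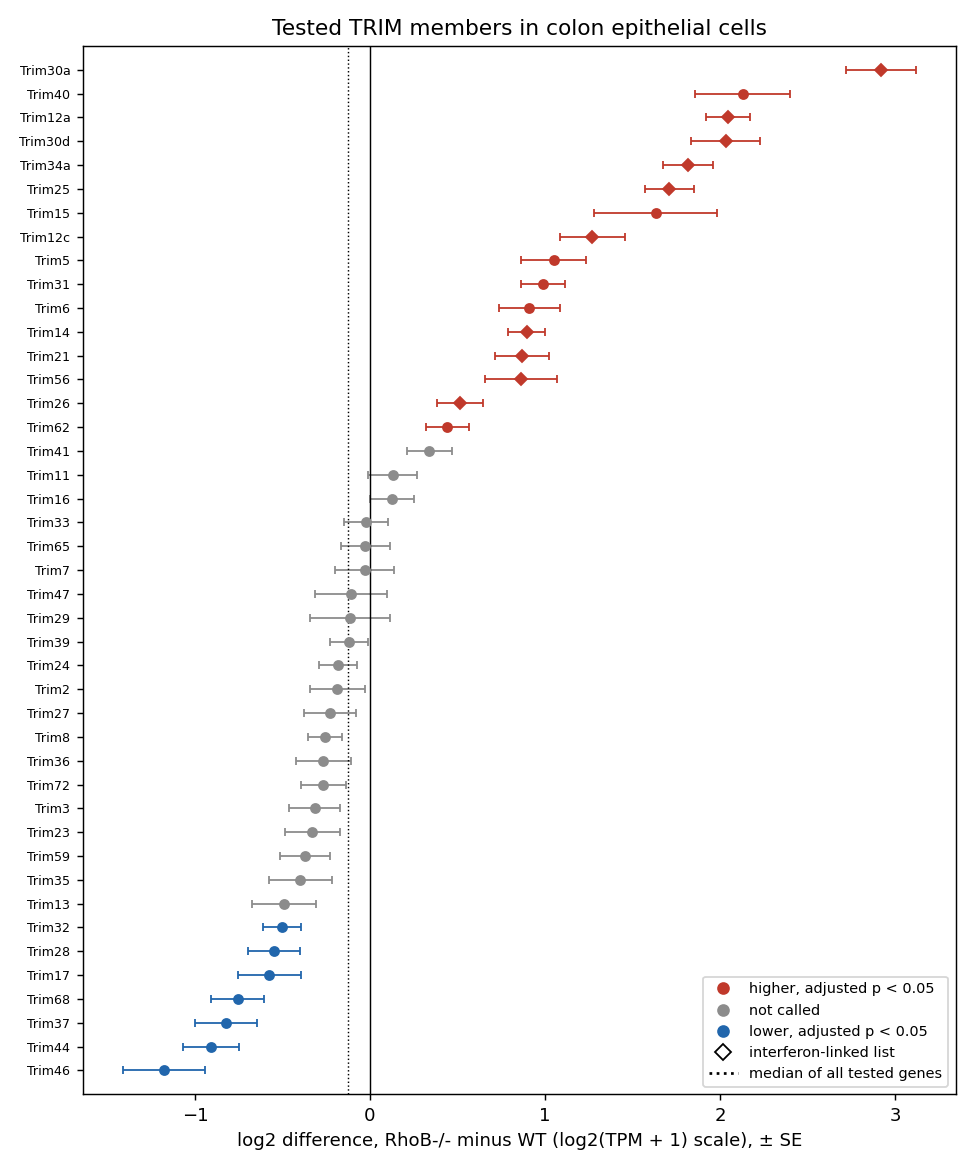
Difference between RhoB-/- and WT libraries for the 43 tested TRIM members, as log2 difference (x axis, log2(TPM + 1) scale) with its standard error, in order of size, with diamonds for the interferon-linked list and a dotted line at the median of all tested genes. The 16 members called higher reach 2.92 (Trim30a) and the 7 called lower reach -1.18 (Trim46).

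Markers of other cell types also differed between the groups. Of the 11 T cell markers examined, 7 were tested and 6 were higher in RhoB-/- libraries (Gzma, Gzmb, Cd8a and Cd3g with the lowest p), and the 11 together summed to 10.6 to 23.0 TPM in WT and 57.2 to 66.7 TPM in RhoB-/- libraries. None of the 11 was at 0 in all libraries. Markers of B and plasma cells summed to 0.18 to 1.01 TPM in WT and 0.99 to 14.1 TPM in RhoB-/- libraries, with none tested (Mzb1 was at 0 in every WT library). Of the myeloid markers 3 were tested and Cd68 was higher (sums of 16.8 to 29.1 against 22.3 to 40.7 TPM, with Lyz2 and Cd14 not called). The WT means of Cd8a (0.832 TPM), Cd68 (0.988 TPM) and Lyz2 (0.868 TPM) were below the filter of 1, so these were tested only because of their levels in RhoB-/- libraries. Of the stromal and muscle markers 3 were tested and Dcn was higher (sums of 4.48 to 9.56 against 6.99 to 38.1 TPM, with Col3a1 and Actg2 not called). Of the 10 epithelial markers, Krt20 and Vil1 were higher and none was lower (Krt18 and Epcam had the next lowest p). The part of these cell types in the TRIM results was not tested. The library labelled RhoB-/- replicate 5 had the lowest T cell sum of its group and the highest sums of B cell and stromal markers. Its epithelial marker sum was also the highest (4.32e+04 TPM, against 2.62e+04 to 3.98e+04 TPM in the other RhoB-/- libraries). This library had the highest TPM of its group for 15 of the 16 higher members. Without it, 15 members were higher and 5 lower, all of them among those called with it.

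The interferon-linked members were followed first. They are 13 TRIM genes with such a link that were listed by hand, of which 10 were tested. The list is not complete, since Trim5, Trim6, Trim31 and Trim38, which also have roles in antiviral defence or sensing, are not on it. All 10 were higher in RhoB-/- libraries, with a median difference of 1.49 (0.51 to 2.92), beside the median of -0.13 over all tested genes. As the list was drawn up with earlier results of these data known, its count is a description. Their summed TPM ran from 107 to 144 in WT and from 285 to 433 in RhoB-/- libraries, or from 285 to 346 without RhoB-/- replicate 5. Their part of all TRIM TPM was 20.7% in WT and 37.3% in RhoB-/- libraries.

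Trim30a (ENSMUSG00000030921, chr7:104409025-104465193), whose product curbs Toll-like receptor signalling by removing the adaptors TAB2 and TAB3, had the largest difference. It had 2.0, 3.21, 1.63, 2.33 and 1.59 TPM in WT replicates 1 to 5, and 16.8, 22.0, 16.9, 27.4 and 33.0 TPM in RhoB-/- replicates 1 to 5. The means were 2.15 ± 0.664 and 23.2 ± 7.01 (SD, n = 5 each), a ratio of 10.8 and a difference of 2.92 ± 0.20 (adjusted p = 1.69e-06). Every RhoB-/- library was far above every WT library. Its neighbour Trim30d (ENSMUSG00000057596, chr7:104470014-104507849), a close paralog, was more abundant in WT, with 6.79, 11.1, 6.35, 8.54 and 6.45 TPM in WT replicates 1 to 5, and 26.6, 36.5, 25.0, 41.8 and 48.0 TPM in RhoB-/- replicates 1 to 5. The groups were again apart, with a difference of 2.03 ± 0.20 (adjusted p = 3.69e-05). Of the 75-base words in the annotated transcripts of Trim30a and Trim30d, 4.98% and 5.40% also occurred in another gene, mostly in each other.

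The relatives of the retroviral restriction factor TRIM5 were also raised. Trim12a (ENSMUSG00000066258, chr7:104299894-104315466) had 8.77, 11.2, 11.1, 10.6 and 9.34 TPM in WT replicates 1 to 5, and 38.8, 39.8, 46.1, 44.8 and 58.9 TPM in RhoB-/- replicates 1 to 5. Its replicates were tight in WT (mean 10.2 ± 1.11, SD), and the difference of 2.05 ± 0.13 had the lowest adjusted p of the family (6.41e-07, limma). Trim12c (ENSMUSG00000057143, chr7:104338754-104353362) had 4.76, 7.64, 5.43, 6.51 and 6.01 TPM in WT replicates 1 to 5, and 12.3, 15.6, 12.1, 17.6 and 24.7 TPM in RhoB-/- replicates 1 to 5, with a difference of 1.27 ± 0.18 (adjusted p = 7.55e-04). Both were apart in all libraries. Trim5 itself (ENSMUSG00000060441, chr7:104263386-104288094), which was not on the interferon-linked list, had 0.40, 1.07, 0.61, 0.71 and 0.55 TPM in WT replicates 1 to 5, and 2.16, 1.92, 2.18, 2.33 and 3.79 TPM in RhoB-/- replicates 1 to 5 (difference 1.05 ± 0.18, adjusted p = 0.00266). Its WT mean of 0.668 was below the filter of 1, so it was tested only because of its level in RhoB-/- libraries. The split between these paralogs is uncertain, since 16.9% of the 75-base words of Trim12c and 20.6% of those of Trim5 occurred in another gene, mostly in each other, against 5.25% for Trim12a.

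Trim34a (ENSMUSG00000056144, chr7:104244457-104262234), another neighbour of the restriction factor group, had 2.92, 4.96, 3.41, 4.04 and 3.26 TPM in WT replicates 1 to 5, and 12.1, 16.1, 13.9, 17.7 and 18.2 TPM in RhoB-/- replicates 1 to 5. The difference was 1.82 ± 0.14 (adjusted p = 5.90e-06) with no overlap. Its near copy Trim34b, with which it shared 29.5% of its 75-base words, stayed low in both groups, at 0.06, 0.41, 0.24, 0.37 and 0.28 TPM in WT replicates 1 to 5, and 0.14, 0.45, 0.26, 0.30 and 0.49 TPM in RhoB-/- replicates 1 to 5 (exact permutation p = 0.556, unadjusted). Trim30b had 0.10, 0.18, 0.04, 0.08 and 0.04 TPM in WT replicates 1 to 5, and 0.72, 0.50, 0.33, 0.37 and 0.76 TPM in RhoB-/- replicates 1 to 5, with no overlap between the groups although all values were under 1 (exact permutation p = 0.00794, the smallest that 5 against 5 libraries can give, unadjusted). For Trim30c the library labelled RhoB-/- replicate 5 gave 0.14 TPM, and it was listed at 0 elsewhere.

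Trim6 (ENSMUSG00000072244, chr7:104218793-104235152), which makes unanchored ubiquitin chains that activate the kinase IKKε, opens this row of genes and was not on the interferon-linked list. It had 2.87, 3.82, 2.02, 2.79 and 3.66 TPM in WT replicates 1 to 5, and 6.52, 5.69, 4.64, 7.29 and 8.94 TPM in RhoB-/- replicates 1 to 5. The groups did not overlap (difference 0.91 ± 0.17, adjusted p = 0.00445). Trim6, Trim34a, Trim5, Trim12a, Trim34b, Trim12c, Trim30b, Trim30c, Trim30a and Trim30d form a run of 10 members over 289 kb of chromosome 7 (chr7:104218793-104507849, gene positions from GENCODE M21 on GRCm38). All 7 tested members of the run were higher, with a median difference of 1.82, and the summed TPM of the run was 28.7 to 43.7 in WT and 116 to 197 in RhoB-/- libraries, a ratio of the means of 4.30 (3.93 without RhoB-/- replicate 5). Of these 7 tested genes, 6 held the ISRE core at a start site, the exception being Trim6. The 6 include the near-copy windows named above.

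**Figure D2:**
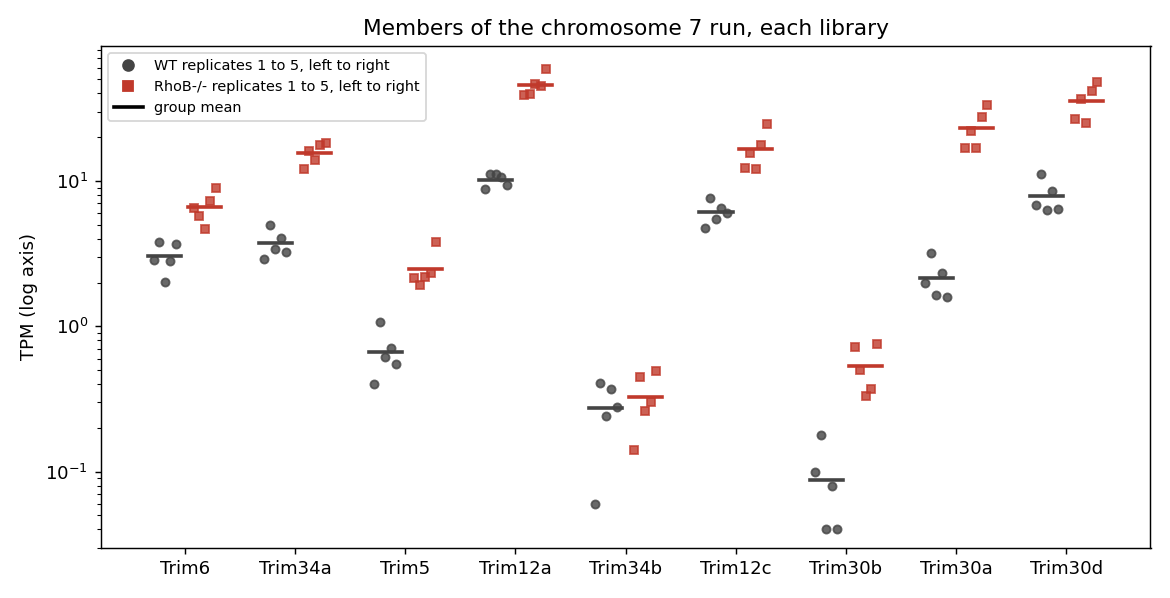
TPM (y axis, log scale) of the members of the chromosome 7 run in each library, with WT as circles, RhoB-/- as squares and bars at the group means. Trim30c, which was at 0 in all but 1 library, is left out. The squares lie above the circles without overlap for every member shown but Trim34b, whose groups overlap between 0.14 and 0.41 TPM.

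Trim25 (ENSMUSG00000000275, chr11:88999376-89020293), the ligase that attaches K63-linked ubiquitin to the RNA sensor RIG-I, was among the most abundant interferon-linked members. It had 21.6, 24.7, 23.2, 24.2 and 26.9 TPM in WT replicates 1 to 5, and 80.4, 71.0, 66.0, 81.6 and 114 TPM in RhoB-/- replicates 1 to 5. The RhoB-/- mean of 82.5 ± 18.6 against 24.1 ± 1.94 in WT (SD, n = 5 each) was a difference of 1.71 ± 0.14 (adjusted p = 6.68e-06), and the groups did not overlap. Trim14 (ENSMUSG00000039853, chr4:46493781-46536141), which lacks a RING finger and works as an adaptor of the mitochondrial sensor MAVS, had 17.8, 24.2, 17.8, 18.2 and 20.9 TPM in WT replicates 1 to 5, and 34.4, 37.9, 36.1, 40.3 and 38.5 TPM in RhoB-/- replicates 1 to 5. All RhoB-/- libraries were higher (difference 0.90 ± 0.11, adjusted p = 1.78e-04). Exons of Trim14 overlap those of 3 annotated genes on the other strand, among them Nans. Exons of Trim34a and Trim46 overlap those of Gm47248 and Krtcap2 on the other strand. Those of Trim5 and Trim12c overlap Gm24846 and Gm27995 on the same strand, and Trim17 is described below. Uncalled members with such overlaps include Trim16 (Fbxw10, same strand) and Trim41 (Rack1, other strand).

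Trim21 (ENSMUSG00000030966, chr7:102557921-102565486), the cytosolic receptor for antibody-coated viruses, was lower in level, at 3.58, 4.26, 2.17, 3.88 and 3.32 TPM in WT replicates 1 to 5, and 6.81, 6.31, 5.71, 7.77 and 8.64 TPM in RhoB-/- replicates 1 to 5. It differed by 0.87 ± 0.15 (adjusted p = 0.00289) with no overlap. Its nearest TRIM neighbour, Trim68, moved the other way. Trim56 (ENSMUSG00000043279, chr5:137105644-137116209), which takes part in cytosolic nucleic acid sensing, had 9.26, 13.3, 6.55, 9.82 and 6.29 TPM in WT replicates 1 to 5, and 15.1, 18.7, 12.1, 16.0 and 23.5 TPM in RhoB-/- replicates 1 to 5. It was called higher (difference 0.86 ± 0.21, adjusted p = 0.0135), but WT replicate 2 lay above RhoB-/- replicate 3, so the groups overlapped. Trim26 (ENSMUSG00000024457, chr17:36837134-36859398), a ligase of IRF3 signalling, had 29.3, 38.5, 39.0, 32.1 and 36.3 TPM in WT replicates 1 to 5, and 46.3, 41.3, 50.9, 49.9 and 65.0 TPM in RhoB-/- replicates 1 to 5. The groups did not overlap, although the difference of 0.51 ± 0.13 (adjusted p = 0.018) was the smallest of the interferon-linked list.

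A run of 5 members on chromosome 17 (Trim26, Trim15, Trim10, Trim40 and Trim31, chr17:36837134-36910214) spans 73 kb. All 4 tested members were higher, with a median difference of 1.31. Trim40 (ENSMUSG00000073399, chr17:36881598-36890123), which is known from the gastrointestinal tract and restrains NF-κB signalling, showed the widest range in TPM. It had 15.3, 15.2, 26.1, 13.2 and 23.1 TPM in WT replicates 1 to 5, and 92.8, 51.1, 73.7, 68.5 and 154 TPM in RhoB-/- replicates 1 to 5. The difference was 2.13 ± 0.27 (adjusted p = 3.19e-04), with no overlap. Trim15 (ENSMUSG00000050747, chr17:36860691-36867210), a focal adhesion protein, spread in the same way, with 13.2, 10.7, 26.9, 10.2 and 24.0 TPM in WT replicates 1 to 5, and 82.4, 27.7, 44.8, 37.2 and 87.5 TPM in RhoB-/- replicates 1 to 5. The lowest RhoB-/- library was only just above WT replicate 3, and the standard error was the largest of the called members (difference 1.63 ± 0.35, adjusted p = 0.00839). Trim31 (ENSMUSG00000058063, chr17:36898118-36910214), an intestinal ligase that acts on MAVS and on the NLRP3 inflammasome, had 31.0, 39.9, 43.9, 35.1 and 39.5 TPM in WT replicates 1 to 5, and 78.1, 65.1, 69.1, 74.7 and 93.9 TPM in RhoB-/- replicates 1 to 5. Its groups were well apart (difference 0.99 ± 0.13, adjusted p = 3.13e-04).

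Trim10, a member expressed in the erythroid lineage, lay inside the run and was barely detected (mean 0.028 TPM in WT and 0.118 TPM in RhoB-/- libraries, exact permutation p = 0.135, unadjusted). Trim39, which lies before the run on the same chromosome, had 10.03 ± 1.13 TPM in WT and 9.15 ± 1.03 TPM in RhoB-/- libraries (SD, n = 5 each) and was not called (difference -0.12 ± 0.11). The summed TPM of the run was 88.8 to 136 in WT and 185 to 400.3 in RhoB-/- libraries, a ratio of the means of 2.50 (2.20 without RhoB-/- replicate 5). The ISRE core was found in the window of Trim26, and the GAS core in those of Trim15 and Trim31. Outside the runs on chromosomes 7 and 17, 32 members were tested, of which 5 were higher (Trim14, Trim21, Trim25, Trim56 and Trim62) and 7 were lower. Over all tested genes 7.73% were higher and 13.5% were lower.

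**Figure D3:**
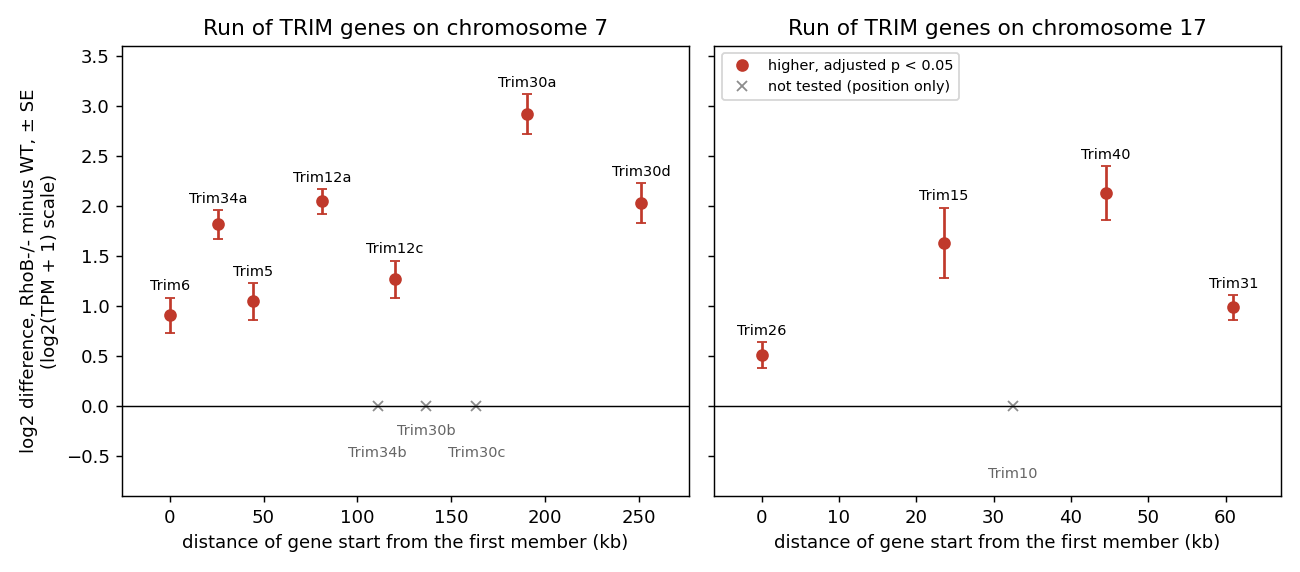
Difference between RhoB-/- and WT libraries (y axis, log2(TPM + 1) scale, bars show the standard error) against the distance of each gene's start from that of the first member of its run, in kb, for the chromosome 7 run (left) and the chromosome 17 run (right). Every tested member lies above 0, from 0.51 (Trim26) to 2.92 (Trim30a), and crosses at 0 mark the positions of members that were not tested.

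Trim62 (ENSMUSG00000041000, chr4:128883580-128911328), a ligase of the fungal sensing adaptor CARD9, was the remaining higher member. It had 2.1, 2.34, 2.31, 2.58 and 2.09 TPM in WT replicates 1 to 5, and 3.2, 3.41, 3.15, 3.23 and 4.41 TPM in RhoB-/- replicates 1 to 5. The groups did not overlap, but the difference was small (0.44 ± 0.12, adjusted p = 0.0259) and depended on RhoB-/- replicate 5, without which the adjusted p was 0.0629 (limma). The call was also lost without WT replicate 5 (adjusted p = 0.0591). Trim26 lost its call only when WT replicate 4 was left out (adjusted p = 0.0518).

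**Figure D4:**
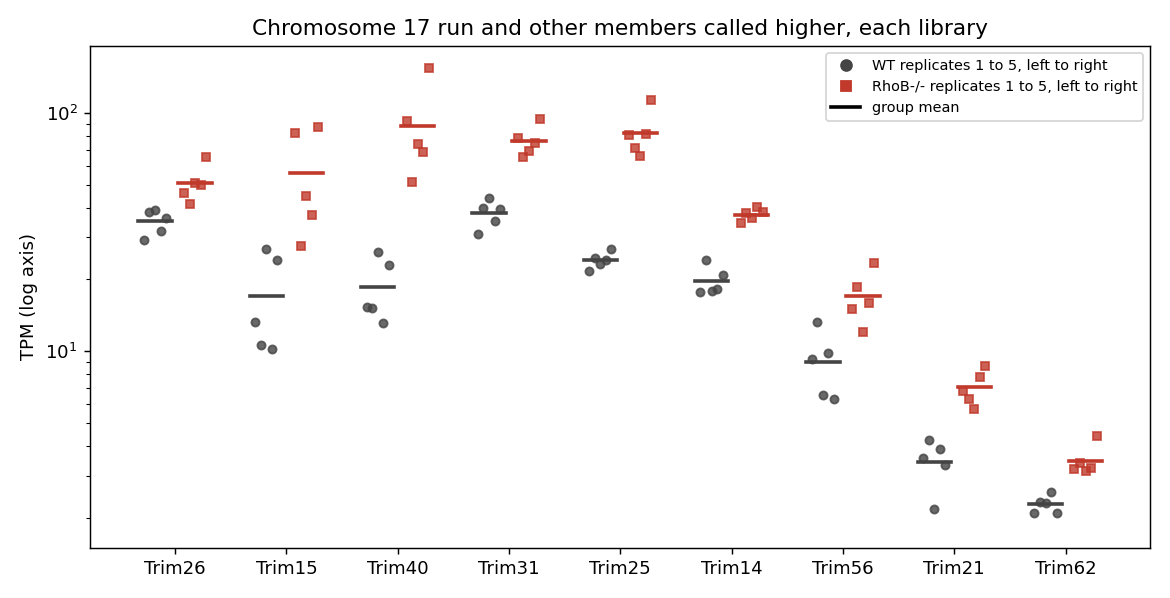
TPM (y axis, log scale) of the tested members of the chromosome 17 run and of the other members called higher, in each library, with WT as circles, RhoB-/- as squares and bars at the group means. The groups overlap for Trim56, between 12.1 and 13.3 TPM, and for no other member shown.

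The members that fell came from several classes. Trim46 (ENSMUSG00000042766, chr3:89234177-89246309), which bundles microtubules in neurons, had the largest decrease. It had 4.87, 10.7, 8.41, 6.54 and 4.86 TPM in WT replicates 1 to 5, and 2.99, 2.8, 2.99, 2.82 and 1.09 TPM in RhoB-/- replicates 1 to 5. Every RhoB-/- library was below every WT library, with a difference of -1.18 ± 0.24 (adjusted p = 0.00549). Replicate 5 was far below the others of its group. Trim44 (ENSMUSG00000027189, chr2:102300119-102407828), a member without a RING finger that carries a ubiquitin-binding zinc finger, had 6.63, 9.4, 6.57, 11.1 and 8.09 TPM in WT replicates 1 to 5, and 3.4, 4.47, 3.18, 5.13 and 3.62 TPM in RhoB-/- replicates 1 to 5. It too was apart in all libraries (difference -0.91 ± 0.16, adjusted p = 0.00268).

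Trim37 (ENSMUSG00000018548, chr11:87127077-87220683), a ligase with a MATH domain that acts on centrosomes and on histone H2A, had 5.36, 6.51, 4.34, 6.93 and 5.39 TPM in WT replicates 1 to 5, and 2.3, 2.02, 4.63, 2.81 and 2.48 TPM in RhoB-/- replicates 1 to 5. RhoB-/- replicate 3 lay within the WT range and the other 4 lay below it (difference -0.82 ± 0.18, adjusted p = 0.00826). Trim68 (ENSMUSG00000073968, chr7:102677582-102687327), a coactivator of the androgen receptor, had 5.96, 9.07, 5.63, 7.7 and 6.5 TPM in WT replicates 1 to 5, and 3.65, 2.57, 3.97, 4.32 and 4.04 TPM in RhoB-/- replicates 1 to 5. The groups did not overlap (difference -0.76 ± 0.15, adjusted p = 0.00528). Trim68 and the raised Trim21 lie within 129 kb of each other on chromosome 7. Trim32 (ENSMUSG00000051675, chr4:65604986-65616238), an NHL-domain ligase known from muscle disease, had 6.68, 6.99, 5.78, 6.53 and 5.66 TPM in WT replicates 1 to 5, and 4.03, 3.44, 4.53, 4.38 and 4.5 TPM in RhoB-/- replicates 1 to 5. The change was small but clear of the spread (difference -0.50 ± 0.11, adjusted p = 0.00776).

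Trim28 (ENSMUSG00000005566, chr7:12999114-13031035), the KAP1 corepressor that KRAB zinc finger proteins bring to retroelements, was the most abundant member in WT. It had 79.3, 90.6, 74.5, 94.7 and 90.0 TPM in WT replicates 1 to 5, and 49.6, 48.2, 81.7, 64.6 and 52.5 TPM in RhoB-/- replicates 1 to 5. RhoB-/- replicate 3 lay within the WT range (difference -0.55 ± 0.15, adjusted p = 0.023), and the call was lost when any of WT replicates 2, 4 and 5 or RhoB-/- replicates 1 and 5 was left out (adjusted p of 0.0506 to 0.063). Trim17 (ENSMUSG00000036964, chr11:58954685-58973098), a ligase of the anti-apoptotic protein MCL1, had 8.12, 12.2, 16.9, 12.6 and 11.5 TPM in WT replicates 1 to 5, and 6.55, 6.82, 10.2, 9.23 and 6.35 TPM in RhoB-/- replicates 1 to 5. The groups overlapped and the call was the weakest of the family (difference -0.57 ± 0.18, adjusted p = 0.0416). Leaving out any of WT replicates 2 to 5 or RhoB-/- replicates 1, 2 and 5 raised its adjusted p to between 0.0674 and 0.0963. Exons of Trim17 overlap those of the histone gene Hist3h2a on the same strand, and 17% of its 75-base words are shared with it, and how reads were divided between them is not given in the sources used here.

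**Figure D5:**
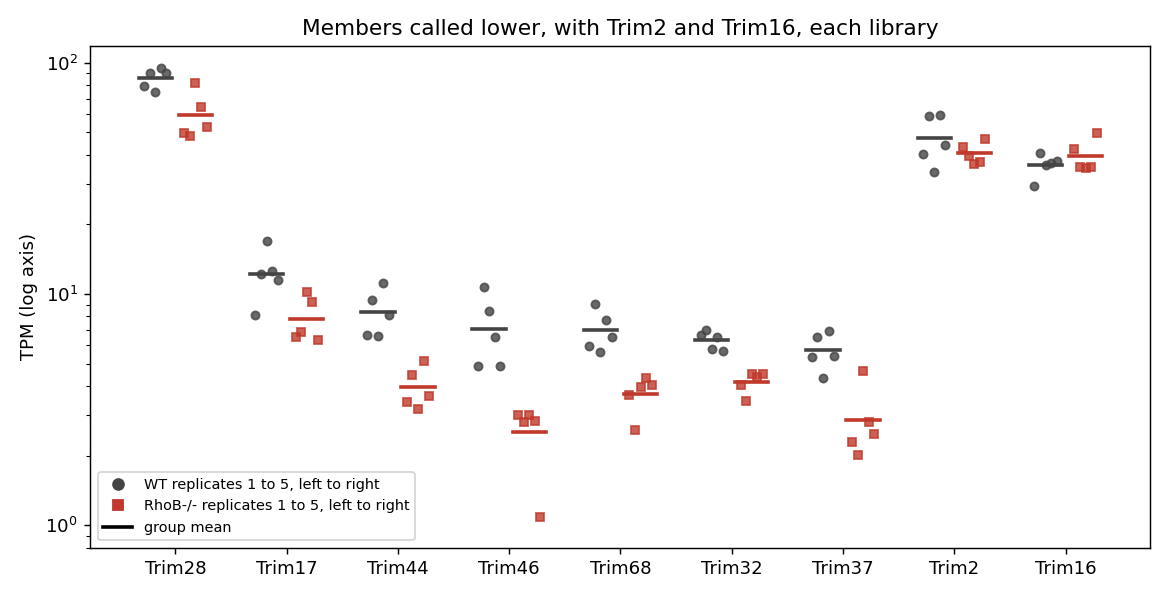
TPM (y axis, log scale) of the 7 members called lower and of Trim2 and Trim16, in each library, with WT as circles, RhoB-/- as squares and bars at the group means. The groups are apart for Trim44, Trim46, Trim68 and Trim32 and overlap for Trim28, Trim17, Trim37, Trim2 and Trim16.

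The abundant members were not all moved. Of the 5 with the highest WT mean, Trim31 and Trim26 were higher, Trim28 was lower, and Trim2 and Trim16 were not called. Trim2 (ENSMUSG00000027993, chr3:84160439-84306877), a ligase of neurofilament light chain, had 40.3, 58.6, 33.8, 59.3 and 44.0 TPM in WT replicates 1 to 5, and 43.1, 39.5, 36.4, 37.2 and 46.6 TPM in RhoB-/- replicates 1 to 5 (difference -0.19 ± 0.16, adjusted p = 0.41). Trim16 (ENSMUSG00000047821, chr11:62820231-62850808), which lacks a RING finger and marks damaged endomembranes for autophagy, had 29.3, 40.7, 36.1, 36.7 and 37.7 TPM in WT replicates 1 to 5, and 42.6, 35.5, 35.0, 35.5 and 49.7 TPM in RhoB-/- replicates 1 to 5 (difference 0.13 ± 0.13, adjusted p = 0.494). The groups overlapped for both. Across the 20 members that were not called the differences ran from -0.49 (Trim13) to 0.34 (Trim41), and the adjusted p from 0.0734 to 0.911.

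By class of C-terminus, the class listed as PRY-SPRY held most of the members that rose. Over all tested genes 7.73% were higher and 13.5% were lower. Of the 37 members of the PRY-SPRY class 23 were tested, with 12 higher, 2 lower (Trim17 and Trim68) and a median difference of 0.44. These 23 are a large part of the 43 tested members. The 12 include all 7 tested members of the chromosome 7 run, and Trim15 and Trim26 of the chromosome 17 run. The others are Trim21, Trim25 and Trim62, so class and position cannot be told apart for most of them. Trim12a is counted there with its paralogs, although some annotations give it no SPRY domain. Of the 4 tested members with no C-terminal domain, Trim31, Trim40 and Trim56 were higher and Trim8 was not called. Among the 4 that lack a RING finger, Trim14 was higher, Trim44 lower, and Trim16 and Trim29 not called. No member was higher in the remaining classes. Of the PHD-bromodomain class, Trim28 was lower, and Trim24 and Trim33, coregulators of the retinoic acid receptor and of SMAD4, were not called. Of the NHL and filamin class, Trim32 was lower, and Trim2 and Trim3 were not called. Trim37 was lower and Trim23 was not called in the class with a MATH or ARF domain. Among the microtubule-binding members with a COS box, an FN3 domain and a SPRY domain, Trim46 was lower and Trim36 was not called. Trim13 and Trim59 of the transmembrane class were not called. The 4 members of the COS class (Trim42, Trim54, Trim55 and Trim63), some of which are muscle ligases, were not tested. Their summed level was 0.00409% of TRIM TPM in WT libraries.

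The members just inside the filter were Trim29 (mean 1.03 TPM) and Trim47 (1.52 TPM), and those just outside it were Trim45 (0.656 TPM) and Trim38 (0.549 TPM). Of the 25 members not tested, 12 had a TPM above 0 in at least 5 libraries and were compared singly. Besides Trim30b, Trim38 and Trim45 had an unadjusted exact permutation p below 0.05. Trim38, a regulator of Toll-like receptor and nucleic acid sensing, had a mean of 0.238 TPM in WT and 0.860 TPM in RhoB-/- libraries (exact permutation p = 0.0159). Trim45, a member with a filamin domain, had 0.780 TPM and 0.532 TPM (exact permutation p = 0.0238). In a fit with no filter, over 28114 genes, the adjusted p was 0.00979 for Trim30b, 0.0243 for Trim38 and 0.144 for Trim45 (limma). Of the others, none had a group mean above 0.328 TPM.

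Genes that work with TRIM proteins were counted from lists. Of 8 genes that encode TRIM or TRIM-like proteins under other symbols, 3 were tested: Pml, the organiser of nuclear bodies, was higher (12.2 ± 1.92 TPM in WT (SD, n = 5), mean 20.1 TPM in RhoB-/-, difference 0.67), Mid1, a microtubule ligase, was lower (difference -0.73), and Mid2 was not called. Of 18 E2 enzymes and ubiquitin genes, 2 were higher, a share near the 7.73% of all tested genes, and none was lower. These were Ube2l6 and Uba7 (differences of 2.33 and 1.87), the E2 and the E1 of the ISG15 pathway, while Ube2l3 and Ube2e2 had the next lowest p and were not called. Of 18 tested innate sensing partners, 6 were higher and none lower, against 7.73% and 13.5% of all tested genes. Their median difference was 0.01. Ddx58, which encodes the Trim25 substrate RIG-I, had a difference of 1.89, and Irf7, Ifih1 and Zc3hav1 had 3.05, 1.59 and 1.24 (adjusted p of 2.67e-06, 3.89e-06, 3.13e-05 and 8.41e-05 in this order, limma). Mavs, Traf3, Traf6 and Irf3 from the same list were not called. Of 12 tested chromatin partners of TRIM proteins, 2 were lower (Smarcad1 and Cbx5), a share near the 13.5% of all tested genes, and none was higher. Their median difference was -0.35, against -0.13 over all tested genes. Trp53 and Mdm2 had the next lowest p and were not called. All 14 reference interferon-stimulated genes were higher, with a median difference of 3.85, and Rtp4, Oasl2, Xaf1 and Ifi44 had the lowest p. Ifi44, with a WT mean of 0.316 TPM, passed the filter only through its level in RhoB-/- libraries.

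Without RhoB-/- replicate 5, the differences of the 15 members still higher ran from 0.42 (Trim26) to 2.78 (Trim30a), and those of the 5 still lower from -0.997 (Trim46) to -0.53 (Trim32). All 10 tested interferon-linked members were among the 15. The calls lost were those of Trim62, Trim17 and Trim28.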

How the data were processed

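Colon IECs of 5 WT and 5 RhoB-/- mice were profiled by RNA sequencing, and the sample titles gave the genotype and the replicate number. Per the methods of the authors, SeqPrep and Sickle were used for trimming, HISAT2 for alignment, StringTie for assembly and RSEM for gene abundance, and the submitters' processing notes name GRCm38.p6. Tool versions are not given in the sources used here. The deposited values are TPM, rounded to 2 decimals by the authors, and were used as given. TPM is relative within a library and keeps no depth, so counting error is unknown.

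Genotypes were compared with limma 3.58.1 in R 4.3.3, by a linear model of log2(TPM + 1) with eBayes moderation and a trend of the variance with the level. The 12870 genes whose mean TPM reached 1 were tested, with Benjamini-Hochberg adjustment over all of them. The procedure was tested on simulated data. Members below the filter with a TPM above 0 in at least 5 libraries were compared by a two-sided exact permutation test over 252 labellings, left unadjusted. The family, the gene lists and the tests were chosen with earlier results of these data known. Named with all values were the called members, the interferon-linked list and the 5 tested members with the highest WT mean. For each other list the 4 genes with the lowest p were named, without a value for each library. Trim10, Trim13, Trim29, Trim38, Trim39, Trim41, Trim45, Trim47 and others without a value for each library were named with means or counts. Runs joined members less than 200000 bases apart (GENCODE M21). The classes were listed by hand. Shared sequence was counted as 75-base words of GENCODE M21 transcripts. The labels do not say whether replicate numbers pair the mice, and the main fit did not pair them. The alternatives were another pseudocount, filters, scalings, no trend, the replicate block and each library left out.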

Additional observations from a re-analysis of the deposited data

Results flagged for a closer look

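The 28 members named with all values, most of them chosen because they were called, were examined by Dixon's criterion at the 95% level. In 4 of 55 groups of 5 libraries the highest or the lowest library stood apart from the other 4 of its group. Chance alone gives about 1 in 20. All 4 were the library labelled RhoB-/- replicate 5. Trim5 had 3.79 TPM in it, against 1.92 to 2.33 TPM in the other RhoB-/- libraries, and Trim62 had 4.41 TPM against 3.15 to 3.41 TPM. Trim46 had 1.09 TPM against 2.80 to 2.99 TPM, which lay further from WT than the others. Trim30c had 0.14 TPM there and was at 0 elsewhere. With the other 4 libraries of a group at 0, any value above 0 is flagged, so the flag of Trim30c carries no weight. This is the library with a Rhob TPM of 111.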

How the results depend on the processing

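No alternative turned the direction of any called member, and 19 of the 23 called members were called under all 18 alternatives, the exceptions being Trim17, Trim28, Trim62 and Trim26. Leaving out each library in turn left 15 to 17 members higher, 5 to 9 lower and 9 to 10 interferon-linked members higher. At the thresholds of the study 14 were higher and 4 to 6 lower, and 19 to 25 were without overlap. Groups that are apart stay apart when a library is left out. The count without overlap thus could not fall for the same members and is no measure of stability. Without mitochondrial genes 12 of 43 tested members were lower, with Trim3, Trim8, Trim13, Trim59 and Trim72 added. That share was near the one over all genes in the same fit, 3729 of 13287. At the thresholds of the study 7 members were lower, as with a pseudocount of 0.1, and the share of all tested genes was not counted there. The count of all tested genes called higher and lower moved with the scaling, from 995 and 1734 to 2010 and 1645 when libraries were centred on their median deviation, 1587 and 1975 with quantile normalization, and 1101 and 3729 without mitochondrial genes, whereas 16 to 17 members were higher in each. Both centring and quantile normalization ended the call of Trim17 (adjusted p of 0.0605 and 0.0751) and added Trim41 as higher. With no filter the calls of Trim17 (0.0959) and Trim62 (0.0543) were lost. With the replicate block 15 members were higher, 6 were lower and 10 interferon-linked members were higher, with Trim62 (0.0884) and Trim28 (0.0507) lost. Same-numbered libraries did not deviate together over the tested genes (correlations of -0.0874 to 0.072). This cannot show whether same-numbered mice were handled together, and the labels do not say. The causes were not tested.

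The precision of each value is set by 5 libraries a group and by the 2 decimals of the deposited TPM, which is coarse for members under 0.1 TPM.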
